A study of Homo sapiens with 6 samples.

Results

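HRAS, NRAS, ARAF, BRAF, MAP2K1, MAP2K2, NF1 and RASA1 encode core proteins and inhibitors of the RAS, RAF and MEK signalling cascade. The members were taken by name: every probe whose gene name in the array files is one of these 8 symbols was used, which gave 10 probes. The 8 genes stand among 16612 named genes, and the 10 probes among 36469 probes that passed the filter on spots that were not found. All 10 member probes passed it.

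Gene expression was measured in RH36, an established embryonal rhabdomyosarcoma (ERMS) cell line without the PAX3/FOXO1 fusion. The pre-miR-27a group received a precursor of the microRNA miR-27a by transient transfection and the pre-control group a negative control precursor, with 3 arrays each that the labels call biological replicates. All cells carried a precursor and transfection reagent, and no untransfected cells were analysed here. The labels give 10 nM of precursor in siPORT reagent, a check of miR-27a after 24 hours and, for the pre-miR-27a arrays, analysis after 48 hours. The study's methods give another dose and another reagent, and its results give an earlier time for evaluating transfected cells. For the pre-control arrays the labels give no time of analysis. Which dose, reagent and time apply to these arrays was not settled. The microRNA was thus supplied from outside, for a short time and in a single cell line, which limits the cells as a model. The comparison addresses how the RNA of these signalling genes stood when miR-27a was supplied to ERMS cells.

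RAS proteins are small GTPases at the membrane that signal while bound to GTP. They recruit RAF kinases, which phosphorylate the MEK kinases, which in turn phosphorylate ERK. Neurofibromin, the product of NF1, and the product of RASA1 speed the hydrolysis of GTP by RAS and so switch it off. Activating RAS mutations are common in embryonal rhabdomyosarcoma, and the cascade is known in muscle cells for favouring proliferation over differentiation. A microRNA pairs with messenger RNAs mainly through its seed, bases 2 to 8, and usually lowers their translation and amount. The mature sequence is shown because it is the agent that separates the groups, with the seed in capitals. It is credited to RefSeq and lies on build GRCh38.p14 at chr19:13836447-13836467, on the minus strand.

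hsa-miR-27a-3p: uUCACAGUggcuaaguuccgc

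No probe of the array is named for MIR27A (0 probes), so the transfected microRNA was not measured on these arrays. Of 43376 spots per array, 69.9% to 73.9% were well above background in pre-control and 74.1% to 78% in pre-miR-27a. Around the spots the local background had a median of 74.5 to 76 intensity units per array in pre-control, against 52.5 to 53 in pre-miR-27a. Each group was hybridized on a slide of its own (pre-control on slide 1, pre-miR-27a on slide 2), and transfection and slide cannot be told apart in any value below. Spiked-in control transcripts were compared relative to each array's 75th percentile of probe signal. Of 8 above background, 7 were higher on slide 2 by this measure. Over all 8 the difference ran from −0.12 to 0.38 log2 units, with a median of 0.21. Over all probes 2856 were called, of which 50.4% were higher with pre-miR-27a, and 39.2% of the calls were higher under 75th percentile scaling. The muscle lineage markers MYOD1, MYOG, DES and CHRNA1 were well above background on all 6 arrays, and MYF5 did not pass the filter. MYOD1 differed by −0.45 log2 units (adjusted p = 0.0787, or 0.0363 with the replicate number as a block) and MYOG by −0.95 (adjusted p = 0.14, or 0.0334 with the block). DES differed by −0.01 and CHRNA1 by −0.15 by its brightest probe, while its other probe was higher by 0.95 (adjusted p = 0.0216). The part of these marker differences in the values of the signalling genes was not tested.

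MAP2K2, which encodes the kinase MEK2, was lower with pre-miR-27a, and it was the single gene of the 8 that passed the test. Its signal fell by 0.65 log2 units, to 0.638-fold of pre-control. By limma, 1 of 10 member probes (10%) was called at an adjusted p under 0.05, against 7.83% of all probes in either direction and 3.88% in the lower direction. The member share is that of a single probe. The groups of arrays did not overlap for 4 of 10 member probes (40%), 1 each of HRAS and MAP2K2 and 2 of NF1, and all 4 were lower with pre-miR-27a. Over all probes the groups did not overlap for 32.5%. The median difference of the 10 probes was −0.06 log2 units, beside −0.02 over all probes. In RNA from whole cultures, fewer cells with a transcript and less of it per cell cannot be told apart.

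**Figure D1:**
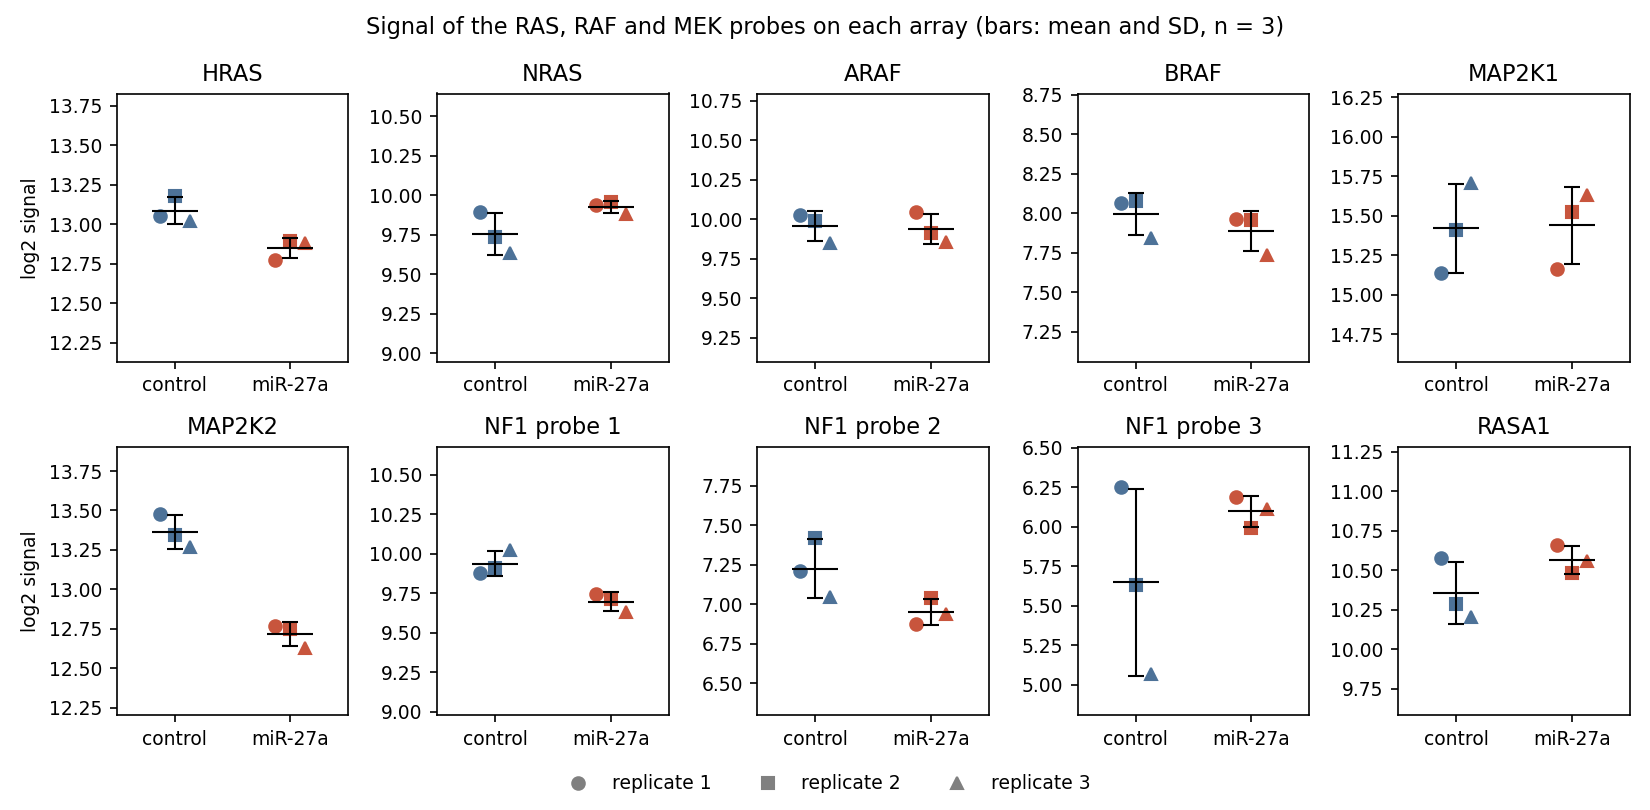
Each panel plots the quantile-normalized log2 signal (vertical axis) of 1 probe in the 3 pre-control (blue) and 3 pre-miR-27a (red) arrays, with symbols for the replicate numbers and black bars for the mean and SD. All panels span the same number of log2 units, and MAP2K2 shows the widest gap between groups that do not overlap, from 13.27 to 12.77.

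Among the RAS GTPases, HRAS signals were 13.05, 13.18 and 13.02 log2 units in pre-control arrays 1, 2 and 3, and 12.78, 12.89 and 12.88 in pre-miR-27a arrays 1, 2 and 3. Every pre-miR-27a array lay below every pre-control array. The difference was −0.24 log2 units (SE 0.08, 95% CI −0.44 to −0.03), or −15.1%, with an unadjusted p of 0.0317 and an adjusted p of 0.157 by limma. HRAS was thus not called, and with the replicate block, which compares same-numbered arrays with each other, its adjusted p was 0.0844. The probe, designed on NM_005343, lies at chr11:523600-523812 on the minus strand of build hg18, the build of the array files. It spans 213 genomic bases with a probe of 60 bases, so it crosses an intron.

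The HRAS probe was printed 10 times on each array, which allowed the error within an array to be set beside that between arrays. The SD of the 10 spots was 0.04 to 0.08 log2 units within an array, and the SD of the 3 array means was 0.08 in pre-control and 0.06 in pre-miR-27a. The spot error of such a mean of 10 spots was thus 0.012 to 0.025 log2 units, less than the spread between arrays, and it covers technical error only. Of the 60 HRAS spots, 9 carried an outlier flag, and leaving out such spots gave −0.23 log2 units (adjusted p = 0.164).

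NRAS, a close relative of HRAS, had signals of 9.89, 9.74 and 9.63 log2 units in pre-control and 9.94, 9.96 and 9.88 in pre-miR-27a. The lowest pre-miR-27a array fell just below the highest pre-control array, so the groups overlapped. The difference was 0.17 log2 units (SE 0.09, 95% CI −0.06 to 0.40, adjusted p = 0.329), and it was positive in all 3 same-numbered pairs. NRAS was not called. Its probe was designed on NM_002524 and lies at chr1:115051456-115051515 on the minus strand. The log ratio of HRAS to NRAS within an array, a comparison chosen after the data were seen, was lower by 0.41 log2 units in pre-miR-27a, without overlap between the groups. The exact two-sided permutation p was 0.1, the smallest that 3 against 3 arrays allow, and it was 0.2 after adjustment over the 4 ratios computed.

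**Figure D2:**
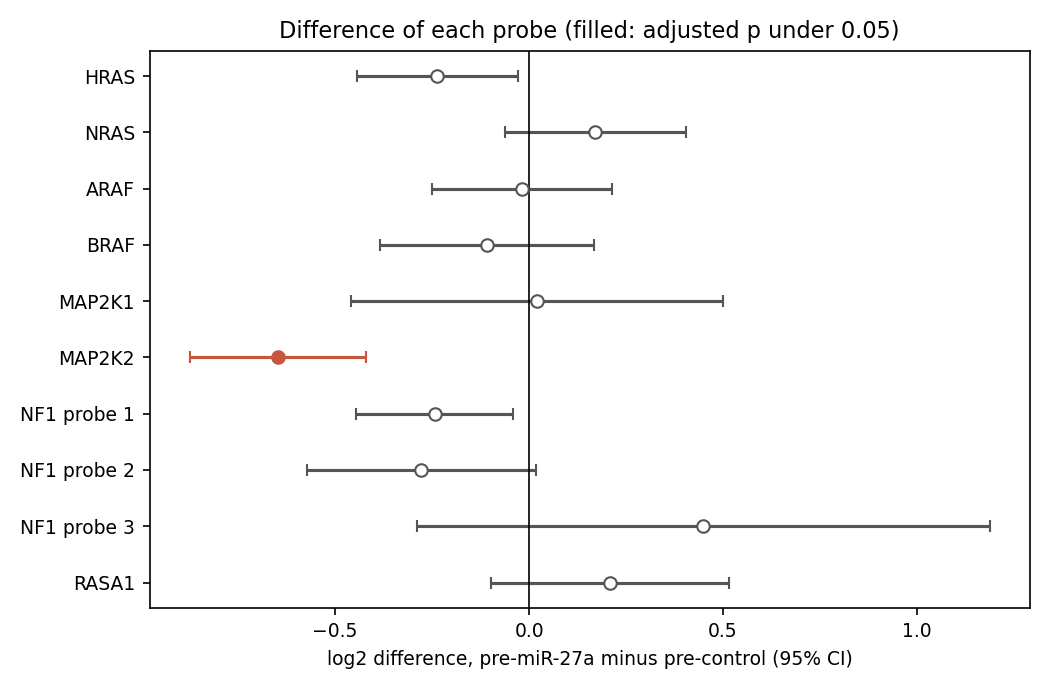
The horizontal axis gives the log2 difference of pre-miR-27a minus pre-control for each of the 10 probes, with 95% confidence intervals from limma (3 arrays a group). MAP2K2 is the filled point, at −0.65, and the intervals of HRAS and of NF1 probe 1 end just short of 0 without an adjusted p under 0.05.

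The RAF kinases ARAF and BRAF link RAS to MEK. ARAF had 10.03, 9.99 and 9.85 log2 units in pre-control and 10.05, 9.91 and 9.86 in pre-miR-27a, with nearly the same mean in both groups. Its difference was −0.02 log2 units (SE 0.09, 95% CI −0.25 to 0.21, adjusted p = 0.936), with no stable sign. The ARAF probe, on NM_001654, lies at chrX:47314264-47314323 on the plus strand. BRAF, the RAF kinase with the highest basal activity, had 8.06, 8.08 and 7.84 log2 units in pre-control and 7.97, 7.96 and 7.74 in pre-miR-27a. Array 3 was the lowest of either group, and the groups overlapped. The BRAF difference was −0.11 log2 units (SE 0.11, 95% CI −0.38 to 0.17, adjusted p = 0.612). Between same-numbered arrays it was −0.10, −0.12 and −0.10, so the pairs moved alike although the groups overlapped, and the adjusted p with the replicate block was 0.222. BRAF was not called by either fit. Its probe was designed on NM_004333, lies at chr7:140080888-140080947 on the minus strand, and was printed 10 times per array. The spots had an SD of 0.05 to 0.08 log2 units within an array, less than the SD of 0.13 between the array means of either group. The ARAF to BRAF log ratio differed by 0.09 log2 units, with overlap (exact permutation p = 0.3, adjusted p = 0.3).

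**Figure D3:**
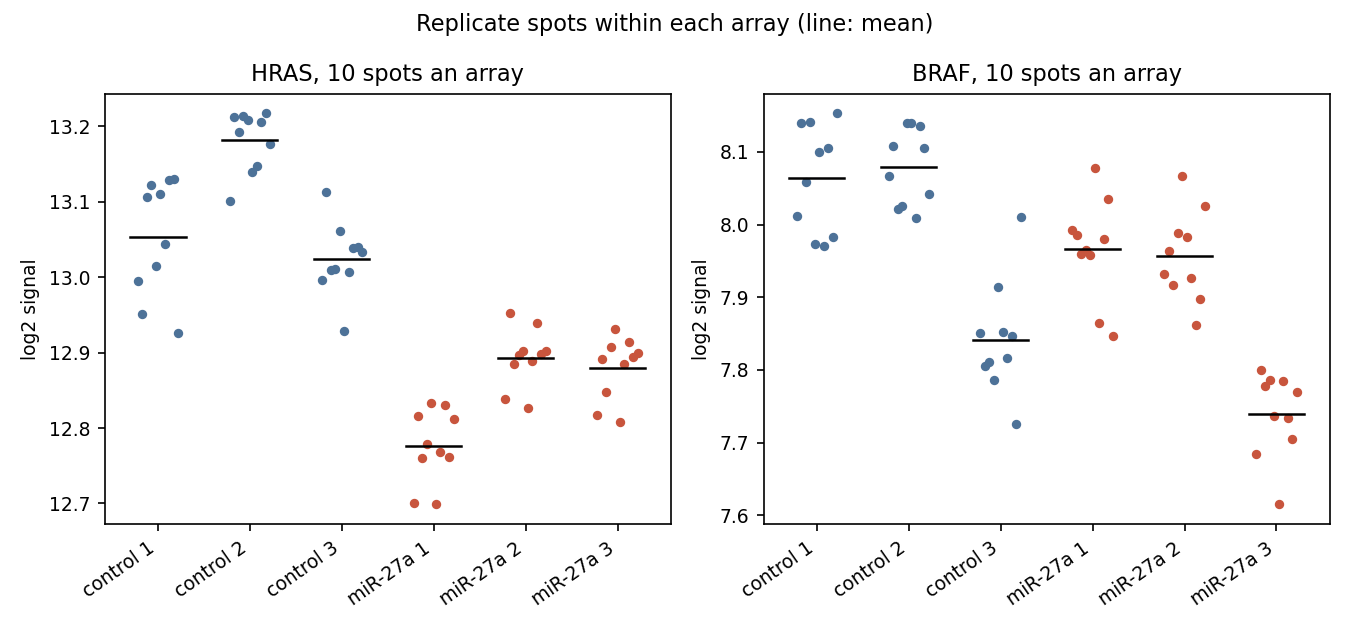
The vertical axes give the log2 signal of the 10 replicate spots of the HRAS probe (left) and of the BRAF probe (right) on each array, with a black line at each array's mean. The HRAS means of the pre-miR-27a arrays (red), at most 12.89, lie under those of the pre-control arrays (blue), at least 13.02, while the BRAF means are intermixed and array 3 is the lowest of each group.

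The MEK kinases MEK1 and MEK2, which phosphorylate ERK, are encoded by MAP2K1 and MAP2K2. MAP2K2 had 13.48, 13.35 and 13.27 log2 units in pre-control and 12.77, 12.75 and 12.63 in pre-miR-27a. The groups lay well apart, with an SD of 0.11 within pre-control and 0.08 within pre-miR-27a. The difference was −0.65 log2 units (SE 0.09, 95% CI −0.88 to −0.42), and the signal fell by 36.2%, with an adjusted p of 0.0219 by limma. In fold terms the interval ran from 0.545 to 0.747. Between same-numbered arrays the difference was −0.71, −0.60 and −0.64 log2 units. As the groups did not overlap, any pairing had to give negative differences, so their sign adds nothing. Before any normalization between arrays, the processed intensity was 10540.5 to 12675 in pre-control and 5484 to 6864 in pre-miR-27a, at least 85.7 times the local background on every array. Such unnormalized values also carry any difference in signal between whole arrays. By rank of p, MAP2K2 stood at place 839 among all probes.

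The MAP2K2 call rests on a single probe, designed on NM_030662, at chr19:4046437-4048325 on the minus strand. It spans 1889 genomic bases and so crosses at least 1 intron. The call held in 9 alternatives that used all arrays and limma, with differences of −0.73 to −0.65 and adjusted p-values of 0.0106 to 0.0334, that of the replicate block being the highest. By unpaired SAM, a test that relabels the arrays, written out here and run on the 31717 probes found on all arrays, MAP2K2 was called at a false discovery rate of 5% but not at 1.9%. By paired SAM, added after the data were seen, MAP2K2 was called at both. That form called 5103 of 31717 probes at 1.9% and 12320 of them at 5%. With 1 array left out the difference stayed between −0.70 and −0.59, and the call was kept without pre-control 1 or pre-control 3. It was lost without pre-control 2 (adjusted p = 0.0609) and without pre-miR-27a 1 (0.0753), 2 (0.0735) or 3 (0.0728), settings in which no probe of the whole array was called.

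MAP2K1 had 15.14, 15.41 and 15.71 log2 units in pre-control and 15.16, 15.52 and 15.63 in pre-miR-27a. In each group array 1 was the lowest and array 3 the highest, and the spread within a group was far wider than the gap between the group means. The difference was 0.02 log2 units (SE 0.19, 95% CI −0.46 to 0.50, adjusted p = 0.965). With the replicate block the interval was −0.17 to 0.21 log2 units (adjusted p = 0.847), and neither interval holds a change of the size seen for MAP2K2. Its probe, on NM_002755, lies at chr15:64570278-64570337 on the plus strand. The MAP2K2 to MAP2K1 log ratio was lower by 0.67 log2 units in pre-miR-27a, but with overlap between the groups (exact permutation p = 0.2, adjusted p = 0.267), as MAP2K1 varied among arrays. Between same-numbered arrays the ratio differed by −0.73, −0.71 and −0.56 log2 units, below 0 in 3 of 3 pairs, with a mean of −0.67 and an SD of 0.09 over the pairs. The exact test over sign changes of the pairs, added after the data were seen, gave p = 0.25, the smallest that 3 pairs allow, so neither exact test could pass the threshold.

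**Figure D4:**
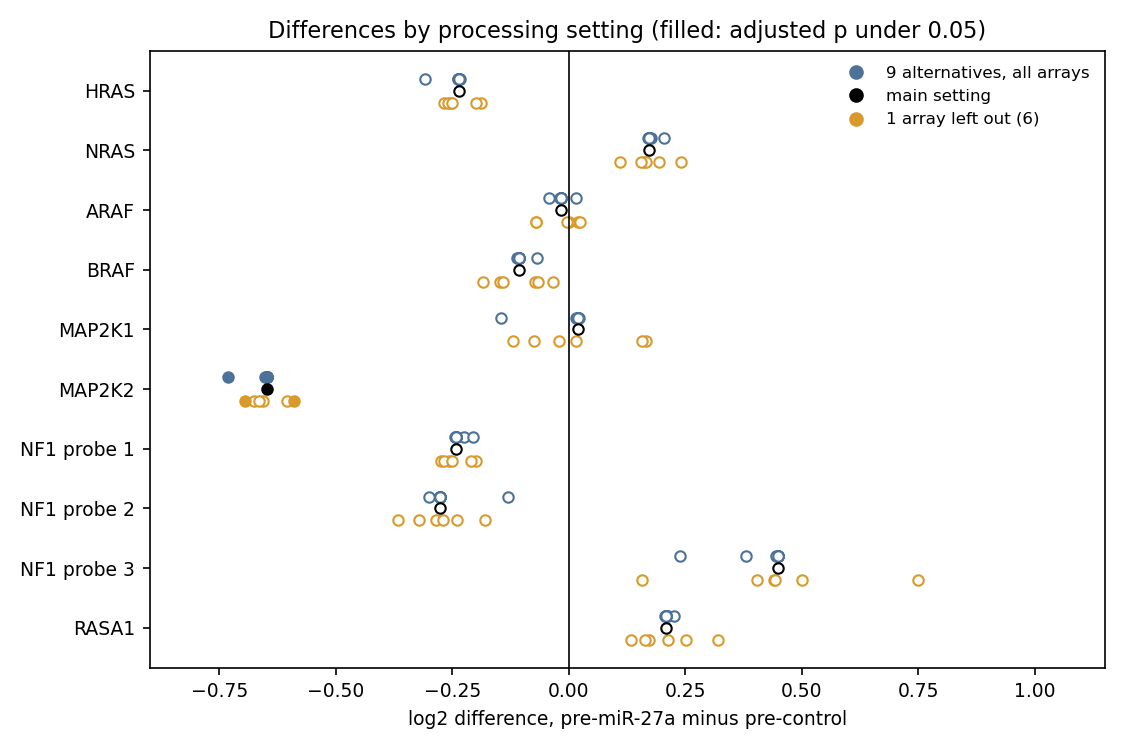
Each row gives the log2 difference of 1 probe (horizontal axis) in the main setting (black), in 9 alternatives using all arrays (blue) and with each of 6 arrays left out (orange), filled where the adjusted p was under 0.05. MAP2K2 stays between −0.73 and −0.59 and is filled except in 4 settings with 1 array left out, while ARAF and MAP2K1 fall on both sides of 0.

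The RAS inhibitors NF1 and RASA1 both encode GTPase-activating proteins. NF1 was measured by 3 probes. The brightest, on NM_001042492 at chr17:26728686-26728745, had 9.88, 9.91 and 10.03 log2 units in pre-control and 9.74, 9.71 and 9.63 in pre-miR-27a. All pre-miR-27a arrays lay below all pre-control arrays. The difference was −0.24 log2 units (SE 0.08, adjusted p = 0.141), which did not pass the test.

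The second NF1 probe, on NM_000267 at chr17:26725374-26725433, is 3253 bases from the brightest. It had 7.21, 7.42 and 7.05 log2 units in pre-control and 6.87, 7.04 and 6.94 in pre-miR-27a, again without overlap, though pre-control 3 and pre-miR-27a 2 almost touched. Its difference was −0.28 log2 units (SE 0.12, adjusted p = 0.224). The third probe, at chr17:26565690-26570168, spans 4479 bases and so crosses an intron, 155206 bases before the second. It had 6.25, 5.63 and 5.06 log2 units in pre-control and 6.19, 5.99 and 6.11 in pre-miR-27a. The groups overlapped, and its difference had the opposite sign, 0.45 log2 units (SE 0.30, adjusted p = 0.419). This probe was dim, with a signal after background subtraction of 0.557 to 1.39 times the local background. The scanner software marked it as well above background on all 6 arrays. The probes of NF1 thus disagreed in sign, and the mean of all 3 differed by −0.02 log2 units (adjusted p = 0.93).

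RASA1 had 10.58, 10.28 and 10.21 log2 units in pre-control and 10.66, 10.48 and 10.56 in pre-miR-27a. Pre-control 1 was above 2 of the pre-miR-27a arrays, so the groups overlapped, while same-numbered arrays differed by 0.08, 0.20 and 0.35 log2 units. The difference was 0.21 log2 units (SE 0.12, 95% CI −0.10 to 0.52, adjusted p = 0.367, or 0.155 with the replicate block), and RASA1 was not called. Its probe was designed on NM_002890 and lies at chr5:86722521-86722580. The log ratio of NF1, by its brightest probe, to RASA1 was lower by 0.45 log2 units in pre-miR-27a, without overlap (exact permutation p = 0.1, adjusted p = 0.2).

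Other genes of the pathway were taken from 8 lists of 61 genes, of which 59 could be tested by their brightest probe. Of these, 27 had a positive and 32 a negative difference, and 1 was called (1.69%), with a median of −0.02 log2 units beside −0.04 over all 16612 genes. Over all genes 2.61% were called higher and 4.04% lower. No list besides the GTPase-activating proteins held a called gene by the main test. With the replicate block 6 genes were called, 4 higher (RASA2, DUSP6, CCND1 and EPHA4) and 2 lower (RASAL1 and RASGRP4), where the block called 5.46% of all genes higher and 8.05% lower. EPHA4 differed by 0.68 log2 units (adjusted p = 0.394 without the block), but its 2 other probes differed by −0.08 and −0.05. SOS2 matched no probe, and KSR2 did not pass the filter.

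The called gene was RASAL1, another GTPase-activating protein for RAS. It had 6.95, 7.51 and 6.75 log2 units in pre-control and 5.82, 6.14 and 5.85 in pre-miR-27a, with no overlap. RASAL1 rests on 1 probe, and its pre-miR-27a mean of 5.94 was below the 6.10 of the third NF1 probe, called dim above. The signal fell by 1.13 log2 units (SE 0.22, adjusted p = 0.0391). The call was lost with any 1 array left out (adjusted p = 0.0508 to 0.119), and with normexp background correction the difference was −0.68, still called. Of the other 6 tested genes of that list, 5 had a positive difference and none was called. Some of these positive differences were smaller than their SE, the smallest being 0.001 log2 units (SE 0.12). By their second probes, RASAL2 differed by −0.28, RASA4 by −0.15 and DAB2IP by 0.39 log2 units, none of them called. RASA2, a relative of RASA1, had 5.94, 5.60 and 5.10 log2 units in pre-control and 6.52, 6.93 and 6.26 in pre-miR-27a. RASA2 differed by 1.02 log2 units without overlap (adjusted p = 0.0817, or 0.0483 with the replicate block). It too rests on 1 probe, and its pre-control mean of 5.55 was below the 5.65 of the third NF1 probe.

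**Figure D5:**
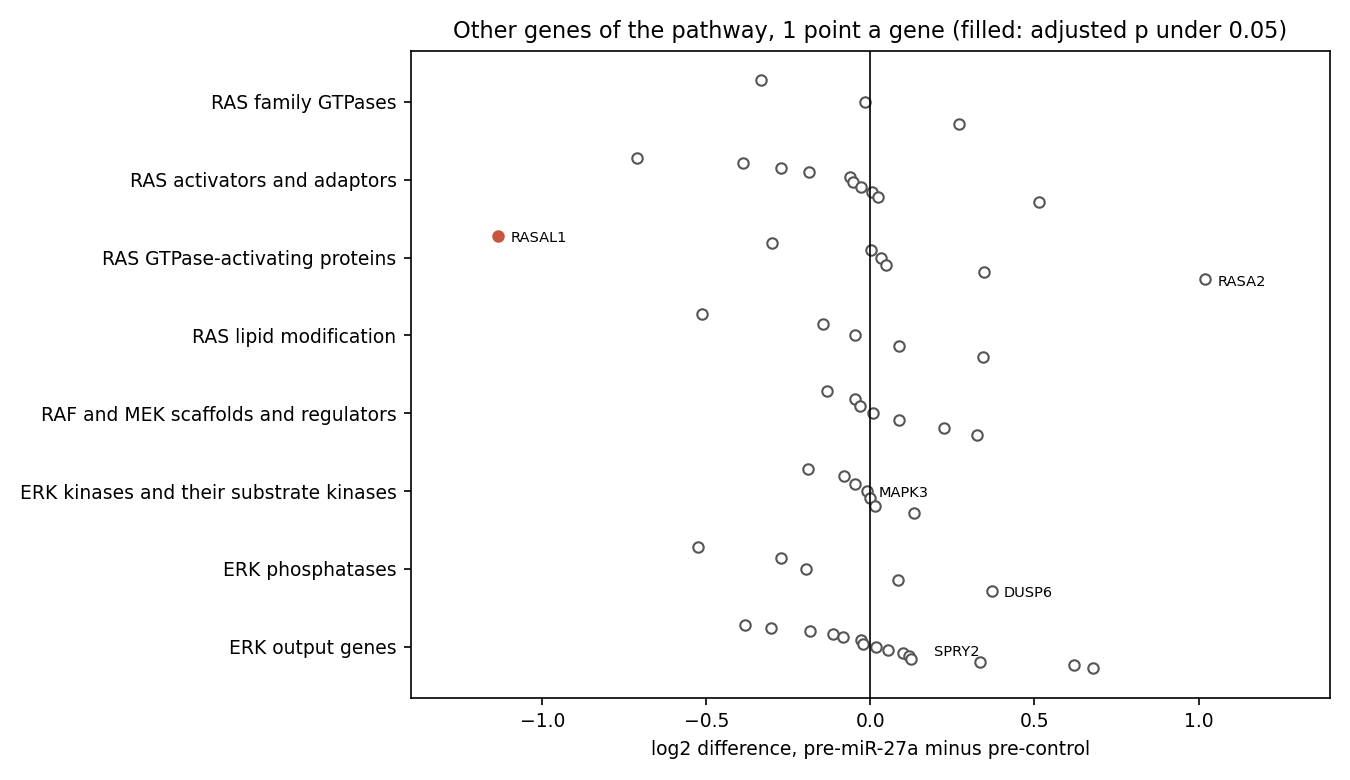
Each point is 1 of 59 pathway genes by its brightest probe, placed by its log2 difference of pre-miR-27a minus pre-control (horizontal axis) in the row of its list, filled where the adjusted p was under 0.05. Only RASAL1, at −1.13, is filled, and each list has points on both sides of 0.

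Upstream of RAS, 10 tested activators and adaptors, such as the exchange factors of the SOS and RASGRP families, ranged from −0.71 to 0.51 log2 units. RASGRP4 had the lower end (adjusted p = 0.0671, or 0.0406 with the block), in a fit without pre-miR-27a 1, where its spot was not found. The RAS family GTPases MRAS, RRAS and RRAS2 ranged from −0.33 to 0.27. The 5 genes that attach or process the lipid anchor of RAS ranged from −0.51 to 0.34, and the 7 tested scaffolds and regulators of RAF and MEK from −0.13 to 0.32. None of the genes in these lists was called by the main test.

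Downstream of MEK, MAPK3, which encodes ERK1, differed by −0.01 log2 units (SE 0.11, adjusted p = 0.962). The 7 ERK and substrate kinases tested ranged from −0.19 to 0.13, and none was called.

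DUSP6, the ERK phosphatase whose transcription follows ERK activity, had 14.49, 14.28 and 14.56 log2 units in pre-control and 14.87, 14.72 and 14.83 in pre-miR-27a. Every pre-miR-27a array was above every pre-control array. The difference was 0.37 log2 units (SE 0.10, adjusted p = 0.0936), and with the replicate block DUSP6 was called (adjusted p = 0.0463). Under 75th percentile scaling it differed by 0.23 (adjusted p = 0.141). DUSP6 had the upper end of the 5 ERK phosphatase genes tested, which ranged from −0.52 to 0.37 log2 units. Of these, 2 had a positive and 3 a negative difference, with a median of −0.20, and none was called by the main test. SPRY2, a feedback inhibitor of the cascade, differed by 0.05 (SE 0.17, adjusted p = 0.886). Of the 15 ERK output genes 8 had a positive and 7 a negative difference, from −0.38 to 0.68, with a median of 0.02. CCND1, the cyclin D1 gene, differed by 0.62 (adjusted p = 0.239, or 0.0374 with the block). Of its 2 other probes, 1 differed by 0.69 and 1 by −0.21.

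The named genes whose signal followed that of MAP2K2 most closely over the 6 arrays were TACO1 (Pearson r = 0.999), WDR97 (r = 0.999) and GMFB (r = 0.999), among 19249 probes well above background. The r values rest on only 6 arrays, which share the split between the 2 slides, and 558 of these probes had an r above 0.95. TACO1 differed by −0.33 log2 units between groups, WDR97 by −0.95 and GMFB by −0.63.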

How the data were processed

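RNA of RH36 cells (3 pre-control and 3 pre-miR-27a arrays) was hybridized in 1 colour (Cy3) to whole genome arrays with probes of 60 bases. The authors deposited spot intensities from Feature Extraction 10.5.1.1, background-subtracted within the array and not normalized between arrays, and a table of log2 values. All 10 member probes are in that table, and their deposited log2 values lie within a median of 0.0047 of the quantile-normalized signals used here. The number of per-sample columns not used was 0.

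After removal of control spots, processed intensities were put on the log2 scale and quantile normalized. A spot that the software had not found counted as missing, replicate spots of a probe were averaged, and a probe could miss at most 1 array. limma 3.58.1 in R 4.3.3 compared the groups without a block, with Benjamini-Hochberg adjustment over 36469 probes and a threshold of 0.05, and the procedure was tested on simulated data. Figures were drawn with matplotlib 3.10.9. A gene with several probes is headed by its brightest. Names were matched through a RefSeq table of GRCh38.p14 to 25260 probes. Probe positions are those of the files (hg18), and exons or UTRs were not annotated, as no table of that build was used. Precision is limited by the number of arrays.

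Same-numbered arrays deviated together from their group means (r = 0.40, 0.46 and 0.41 over 31717 probes, against −0.27 to −0.12 for different numbers). Deviations cancel within a group, so positive values for the same numbers bring negative ones for different numbers, which are no separate evidence. The numbers, given by the labels and equal to the slide positions, were on the positive values taken to pair the arrays. Blocked values stand beside a result where they changed its call, and beside some members. With 1 group per slide, no block for the slide could be fitted.

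Named genes were the members, every called gene of the pathway lists, MAPK3, DUSP6 and SPRY2, and the 3 genes most like a called member. Some genes of the cascade are not reported here and are left out of the counts over the pathway lists. The myogenic markers are a fixed list, and MRAS, RRAS and RRAS2 make up the list of other RAS family GTPases. RASA2, RASGRP4, CCND1 and EPHA4 were named after their values were seen, because the block changed their calls. Members and lists were chosen with earlier results of these data known. The alternatives were normexp background correction (offset 50), 75th percentile scaling, other filters on dim probes and flagged spots, the replicate block, the deposited table, a variance trend with robust estimation, the mean of a gene's probes, unpaired SAM written out in R over all 20 relabellings, and each array left out. Paired SAM over 8 sign changes was added after the data were seen. The study's methods and results name different forms of SAM, and both forms here use the probes found on all arrays, on which their counts may depend.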

Additional observations from a re-analysis of the deposited data

How the results depend on the processing

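HRAS, BRAF, NRAS, RASA1 and each NF1 probe kept their sign and stayed uncalled under the 9 limma alternatives with all arrays and with any 1 array left out. The latter moved BRAF between −0.18 and −0.03 log2 units, NRAS between 0.11 and 0.24, RASA1 between 0.13 and 0.32 and the third NF1 probe between 0.16 and 0.75. ARAF turned from −0.017 to 0.015 log2 units and MAP2K1 from 0.02 to −0.15 under 75th percentile scaling. With 1 array left out ARAF ranged from −0.071 to 0.024, MAP2K1 from −0.12 to 0.16 and MAP2K2 from −0.70 to −0.59. MAPK3 became 0.041 and SPRY2 −0.031 under 75th percentile scaling, and with 1 array left out they ranged from −0.086 to 0.075 and from −0.061 to 0.23. The replicate block changed no member's call, called 6 pathway genes in place of 1 and 5421 probes in place of 2856. Unpaired SAM on the 31717 probes found on all arrays called 411 probes at a false discovery rate of 1.9%, with 0 member probes and 0 pathway genes. At 5% it called 1815 probes, MAP2K2 among them, and 2 pathway genes. By limma, on 36469 probes, 2856 had an adjusted p under 0.05 and 9037 an unadjusted p under 0.05. Paired SAM, added after the data were seen, called 5103 of 31717 probes, MAP2K2 among them, and 5 of 59 pathway genes at 1.9%. At 5% it called 12320 of 31717 probes, 18 of 59 pathway genes and 4 of 10 member probes (HRAS, MAP2K2 and 2 of NF1). At 5% the member share was thus close to that of all probes, and the pathway share was below it. Other pathway genes called numbered 2 with normexp correction, 75th percentile scaling, no filter on dim probes, the positive and significant flag or the deposited log2 values. Over the whole array these settings called 3539 of 36469, 3256 of 36469, 2994 of 41000, 3309 of 33189 and 3343 of 33169 probes. With the filter on probes well above background 3 of 57 pathway genes were called, beside 3870 of 29965 probes. With 1 array left out, 0 to 1 member probes, 0 to 0 pathway genes and 0 to 1827 probes of the whole array were called by limma. The count over the whole array was 1827 without pre-control 1, 1060 without pre-control 3, and 0 without pre-control 2 or pre-miR-27a 1, 2 or 3, where 7050, 6745, 7196 and 6914 probes had an unadjusted p under 0.05. These fits hold fewer arrays and fewer probes, and the cause of the other differences was not tested. Dim signal limits the third NF1 probe most, and each member other than NF1 rests on 1 probe.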
